A study of Mus musculus with 8 samples.

Results

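The interferon response genes described here are transcripts that cells raise when an interferon binds its receptor, and they were measured in the aorta of newborn mice with and without lysyl oxidase. A list of 37 gene symbols was matched to the array's platform table, and 1 probe set was taken per gene, the brightest over all 8 arrays. Probe sets naming a single gene were found for 34 of the 37, and the array held 22184 such genes in all. Gbp2 and Oas1a are named only on probe sets shared with another gene, and Ifi44 was not analysed here. Each of the 34 passed the filter on dim genes, which left 16638 genes for testing.

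The study compared knockout (KO) pups lacking lysyl oxidase (LOX), which prepares elastin and collagen for crosslinking, with wild type (WT) controls, all at p0, the day of birth, on an albino C57BL/6J background. Its 4 groups were KO ascending aorta, WT ascending aorta, KO descending aorta and WT descending aorta, with 2 Affymetrix arrays each. Every array measured RNA pooled from 8 pups of like genotype, so the p-values measure spread between pools. The labels do not say which allele was used or whether pools shared litters. The sample titles do not say whether ascending and descending pools came from the same pups, and the fit treated all 8 arrays as independent.

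Type I interferons signal through the receptor pair Ifnar1 and Ifnar2 and the kinases Jak1 and Tyk2 to a complex that includes Stat2 and Irf9. That complex binds a DNA element, the interferon-stimulated response element (ISRE), in front of many antiviral genes. Type II interferon acts through Ifngr1 and Ifngr2, and its target genes often carry another element, the gamma-activated site (GAS). In blood vessels the response is best known in infection and in inherited disorders of nucleic acid sensing, where endothelium, smooth muscle and infiltrating leukocytes can all take part.

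The arrays are given as log2 RMA signals, with array medians between 5.11 and 5.19 over all probe sets. Lox itself read 8.51 to 8.87 on KO arrays and 11.24 to 11.60 on WT arrays. Smooth muscle markers, 7 genes such as Myh11 and Acta2, averaged 10.48 to 10.62 on KO arrays and 10.45 to 10.62 on WT arrays. WT ascending replicate 1 stood apart in T cell and thymus markers, with a list mean of 6.53, against 5.29 on WT ascending replicate 2 and 4.88 to 5.56 on the KO and WT arrays of the other groups. WT ascending replicate 2 read 8.25 for the airway marker Scgb1a1, against 4.66 on replicate 1. The part of these markers in the results was not tested, and counts without each array are given below. Genes are said to rise, fall or be called at an adjusted p under 0.05 in limma, with Benjamini-Hochberg adjustment over all 16638 genes. Fewer cells of a type and less RNA per cell cannot be told apart in such pools.

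Promoters are shown for the members most clearly separated in the ascending aorta, since the ISRE in front of a gene is where the interferon complex is known to bind. Below are the 250 bases before the RefSeq start site (build GRCm38.p6, gene strand) of the 5 members with the smallest p there for which a promoter was at hand, and of Irf9, the member with the largest p. Capitals mark each match to the ISRE core, written GAAANNGAAA or, on the other strand, TTTCNNTTTC.
Rsad2, chr12:26456453-26456702, minus strand: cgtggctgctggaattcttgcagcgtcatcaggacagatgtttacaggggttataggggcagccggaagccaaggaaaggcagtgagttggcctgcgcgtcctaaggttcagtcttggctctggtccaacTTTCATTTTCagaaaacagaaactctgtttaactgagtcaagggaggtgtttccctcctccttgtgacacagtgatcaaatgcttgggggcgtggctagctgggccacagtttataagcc
Isg15, chr4:156200819-156201068, minus strand: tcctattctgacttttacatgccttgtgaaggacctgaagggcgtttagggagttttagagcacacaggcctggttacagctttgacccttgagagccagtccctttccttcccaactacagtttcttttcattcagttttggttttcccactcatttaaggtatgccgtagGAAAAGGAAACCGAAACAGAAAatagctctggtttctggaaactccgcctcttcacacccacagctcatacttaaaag
Oasl2, chr5:114896684-114896933, plus strand: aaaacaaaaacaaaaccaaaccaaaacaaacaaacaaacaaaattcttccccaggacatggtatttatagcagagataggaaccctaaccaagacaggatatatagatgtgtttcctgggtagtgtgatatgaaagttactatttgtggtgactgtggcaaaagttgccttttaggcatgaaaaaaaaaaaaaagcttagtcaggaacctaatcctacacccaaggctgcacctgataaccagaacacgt
Irf7, chr7:141266425-141266674, minus strand: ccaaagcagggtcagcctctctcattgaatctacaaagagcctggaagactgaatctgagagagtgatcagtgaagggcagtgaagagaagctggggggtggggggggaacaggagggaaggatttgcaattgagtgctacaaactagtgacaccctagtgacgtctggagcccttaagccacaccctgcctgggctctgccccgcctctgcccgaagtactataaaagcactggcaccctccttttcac
Bst2, chr8:71537473-71537722, minus strand: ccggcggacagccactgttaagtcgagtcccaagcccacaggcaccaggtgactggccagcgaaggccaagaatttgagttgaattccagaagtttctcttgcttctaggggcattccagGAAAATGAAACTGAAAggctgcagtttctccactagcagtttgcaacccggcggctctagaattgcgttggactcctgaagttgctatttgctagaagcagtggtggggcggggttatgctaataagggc
Irf9, chr14:55603735-55603984, plus strand: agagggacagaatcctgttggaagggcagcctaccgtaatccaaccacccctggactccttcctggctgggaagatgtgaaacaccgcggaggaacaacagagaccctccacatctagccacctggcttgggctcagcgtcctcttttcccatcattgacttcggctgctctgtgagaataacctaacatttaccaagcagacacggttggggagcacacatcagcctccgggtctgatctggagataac
Isg15 carries 3 overlapping matches, whose first bases lie 78, 72 and 66 bases before the start site. Bst2 carries 2 overlapping matches, 130 and 124 bases before it, and Rsad2 carries 1 on the other strand, 120 bases before it. No such letters stand in the windows printed for Oasl2, Irf7 and Irf9.

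Promoter windows of 300 bases, with 50 bases after the start site included, were at hand for 27 of the 37 members. The ISRE core was found in 13 of those 27 (48.1%), against 3.99% of 27025 genes in the same table. The GAS letters TTCNNNGAA, searched the same way, were found in 8 of the 27 (29.6%), against 9.55% of all genes. Matches of both motifs may overlap, as in Bst2, and a match is a run of letters rather than a shown binding site. Among the 34 measured members, the 11 with an ISRE core had a median KO minus WT difference of 0.42 log2 averaged over both segments. The 13 whose windows lacked it had a median of 0.25, and the 10 with no window at hand had 0.39. In each of these sets some members rose and others did not, 4 of 11, 3 of 13 and 4 of 10, beside 6.21% of all genes called higher.

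**Figure D1:**
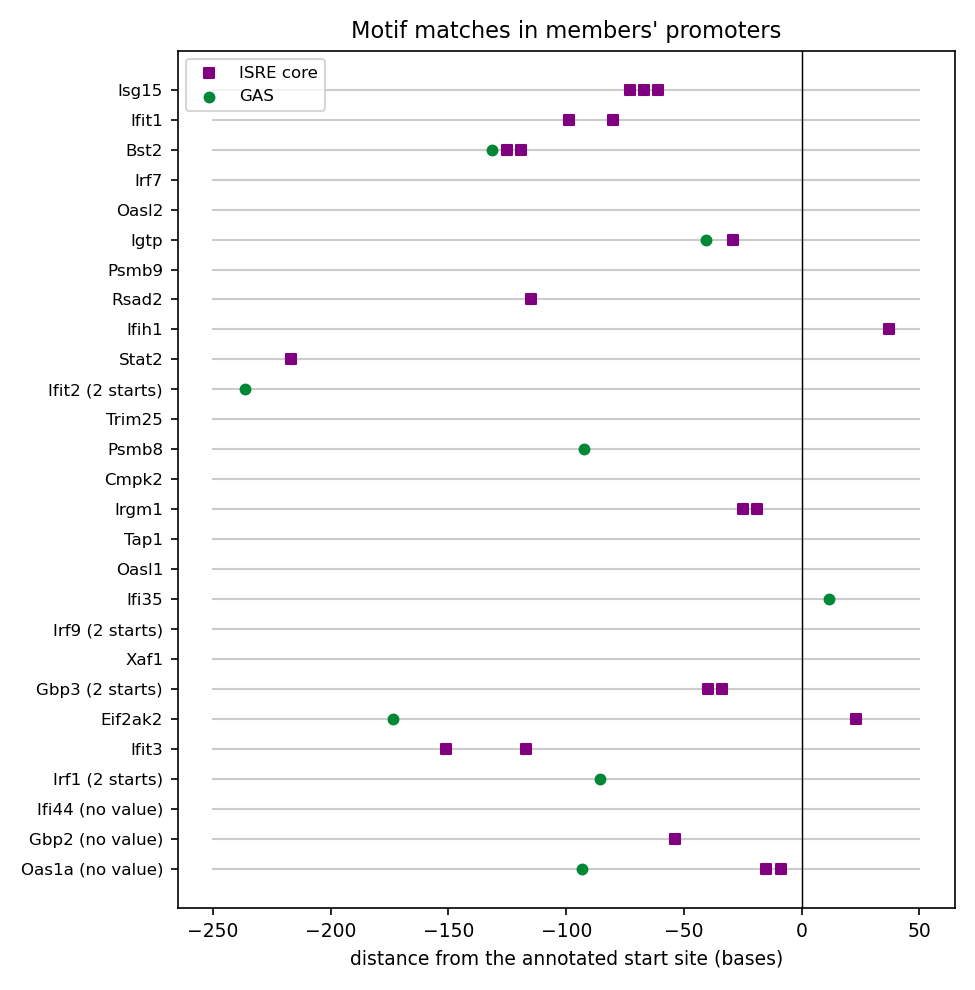
Positions of ISRE core (squares) and GAS (circles) matches from 250 bases before to 50 bases after the annotated start site, for the 27 members with a promoter in the table, ordered from top to bottom by KO minus WT difference averaged over segments. Matches of the ISRE core stand in 13 of the 27 promoters, 3 of them in Isg15, and Irf7 and Oasl2 have no match of either motif.

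Without lysyl oxidase, the interferon response genes read higher in the ascending aorta. All 34 members had a positive KO minus WT difference there, from 0.01 in Irf9 to 1.44 log2 in Isg15, and the median was 0.40 against 0.01 over all genes tested. A positive difference was found in 52.1% of all genes. The 6 members that rose were Isg15, a ubiquitin-like modifier, Rsad2, an antiviral enzyme, Oas2 and Oasl2 of the oligoadenylate synthetase family, Irf7, a transcription factor, and Ifi27. None fell and 28 were not called. That is 17.6% of the members, against 2.73% of all genes called, 1.54% higher and 1.19% lower. In 27 members both KO arrays stood above both WT arrays, against 25.6% of all genes, and in none did both lie below, against 23.9%.

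Fewer of all genes, too, were called in the ascending comparison when any 1 array was left out, and the count of 6 depends on single arrays. It was 1 without KO ascending replicate 1 or without WT ascending replicate 2, 3 without KO ascending replicate 2, and 2 without WT ascending replicate 1 or without either WT descending array. Rsad2 kept its call under each of 17 alternatives, while Isg15 missed it without KO ascending replicate 1 (adjusted p = 0.0676) and without WT ascending replicate 2 (adjusted p = 0.0608). The other four (Oasl2, Irf7, Ifi27 and Oas2) missed it under 7 to 13 of the 17, without KO ascending replicate 1 in each case, where adjusted p was 0.154, 0.189, 0.173 and 0.0818 in that order. The median difference of the members ranged from 0.30 to 0.44 log2 over these omissions.

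In the descending aorta the members were also mostly higher in KO pools. The difference was positive in 30 of 34 members, against 49% of all genes, the median was 0.32 log2 against -0.01 over all genes, and the range ran from -0.36 in Ifit3 to 0.78 in Oas2. Oas2 and Irf7 rose, none fell and 32 were not called. That is 5.88% of the members, against 2.28% of all genes called, 1.46% higher and 0.823% lower. Both KO arrays stood above both WT arrays in 19 members, against 25.6% of all genes, and below in none, against 25.5%. Oas2 and Irf7 were the only members called in both segments separately. Without any 1 array fewer of all genes were called in the descending comparison, and the count of 2 members depended on single arrays as well. The count was 0 when any of the 4 descending arrays was left out, with Oas2 then at adjusted p = 0.112 to 0.144 and Irf7 at 0.0775 to 0.24. Without KO descending replicate 2 the descending median was 0.49, above the ascending 0.40, and the order of the segments is thus not settled. The count was 1 without either KO ascending array, where Irf7 had an adjusted p of 0.0602.

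Averaged over both segments, 11 members rose and none fell. They were Isg15, Ifit1, Zbp1, Bst2, Oas2, Irf7, Oasl2, Psmb9, Rsad2, Ifi27 and Parp14. That is 32.4% of the members, against 11.4% of all genes called, 6.21% higher and 5.22% lower. The difference was positive in 32 members, against 50.9% of all genes. In 15 members the KO arrays stood above the WT arrays in both segments, against 12.8% of all genes, and below in none, against 12.4%. Fewer of all genes were called without any 1 array, while the count of members moved either way. Without a single array the count ranged from 7 to 15, with 7 without WT descending replicate 1 and 15 without KO descending replicate 2. Isg15, Zbp1, Oas2, Irf7, Oasl2, Rsad2 and Ifi27 were called under every one of 16 alternatives. Bst2 was not called without WT descending replicate 1 (0.69 log2, adjusted p = 0.0509). The other three were Ifit1, Parp14 and Psmb9, whose calls ended under 6, 7 and 8 alternatives, with adjusted p up to 0.0979, 0.0704 and 0.133.

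**Figure D2:**
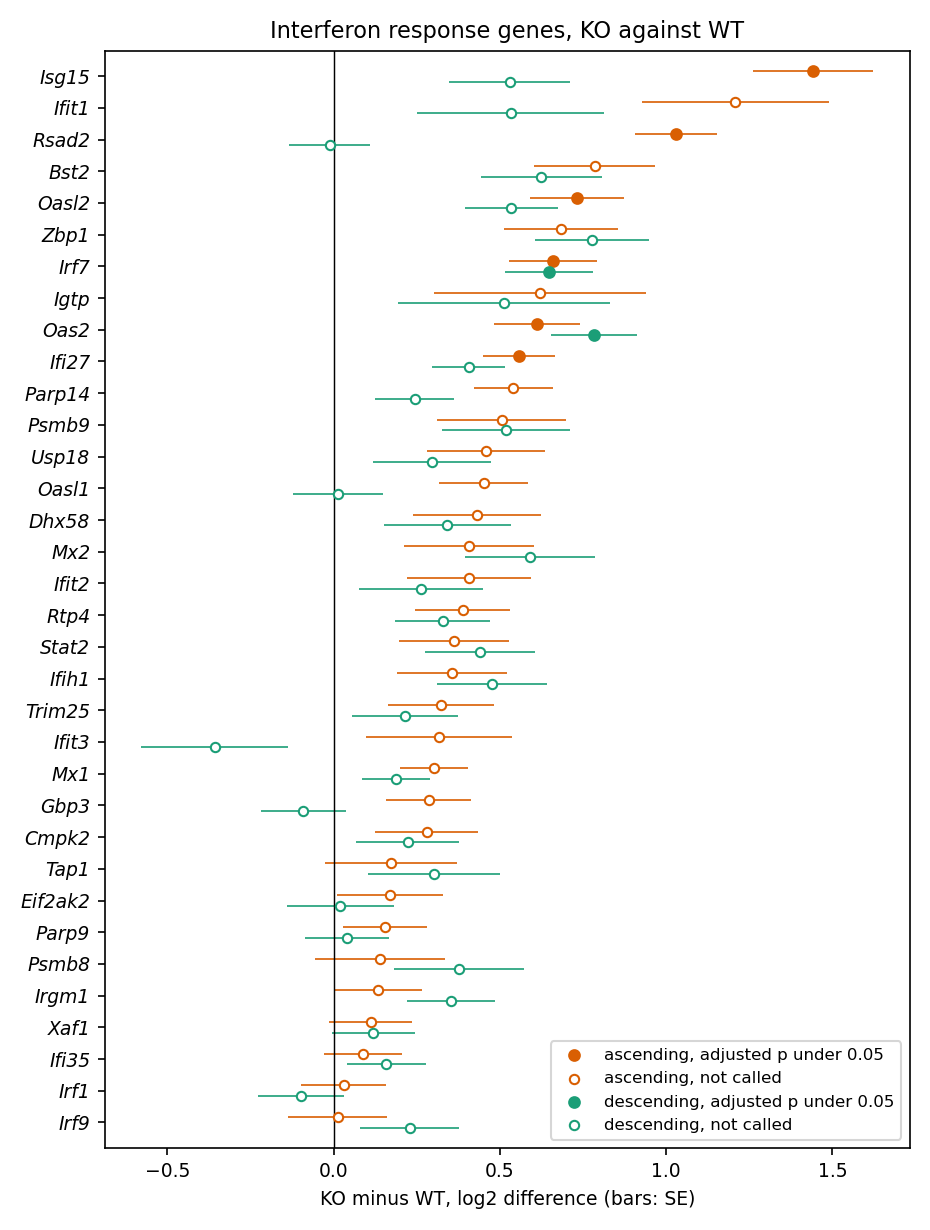
KO minus WT difference of each of the 34 members on the log2 scale (points) with its standard error (bars), in the ascending (orange) and descending (green) aorta, ordered by the ascending value; filled points passed an adjusted p of 0.05 in limma. All 34 ascending points lie at or above 0, 6 of them filled, and 30 of the descending points lie above 0, 2 of them filled.

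Isg15 encodes the ubiquitin-like protein that is attached to other proteins or secreted. Its signal was 8.32 and 8.18 on KO ascending arrays, against 7.00 and 6.62 on WT ascending arrays. In the descending aorta it was 8.11 and 7.67 in KO, against 7.24 and 7.49 in WT. The KO arrays were above the WT arrays in both segments, and the WT ascending arrays were the lowest of all. The ascending rise was 1.44 log2 (SE 0.18, adjusted p = 0.0105 in limma), a 2.72-fold difference, while the descending difference was 0.53 (SE 0.18, adjusted p = 0.169). Usp18, the protease that strips Isg15 from proteins and restrains the type I receptor, differed by 0.46 (adjusted p = 0.211) in the ascending and 0.30 (adjusted p = 0.418) in the descending aorta.

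Ifit1, which binds foreign RNA at its capped or triphosphate end, read 7.31 and 7.13 in KO ascending aorta, against 6.10 and 5.92 in WT. Its 2 KO descending pools were far apart, at 7.65 and 6.61, against 6.48 and 6.72 in WT. The groups were separate in the ascending segment and overlapped in the descending one. The differences were 1.21 (SE 0.28, adjusted p = 0.062) and 0.53 (SE 0.28, adjusted p = 0.353), and the average over segments rose by 0.87 (SE 0.20, adjusted p = 0.0276). Without KO descending replicate 1 the descending difference was 0.01, and without KO descending replicate 2 it was 1.05. Ifit2 and Ifit3, relatives that bind RNA or join Ifit1 in a complex, lie close to it on chromosome 19 and were not called, with ascending differences of 0.41 and 0.32 and descending differences of 0.26 and -0.36. WT descending replicate 2 held the highest Ifit3 signal of the 8 arrays, at 7.29.

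The oligoadenylate synthetase family senses double-stranded RNA and switches on an RNA-degrading enzyme. Oas2 read 7.32 and 7.61 in KO ascending aorta, against 6.76 and 6.95 in WT, and 7.75 and 7.84 in KO descending aorta, against 7.06 and 6.96 in WT. All 4 KO arrays lay above all 4 WT arrays. Oas2 rose by 0.61 (SE 0.13, adjusted p = 0.0482) in the ascending and, in the descending segment, by 0.78 (SE 0.13, adjusted p = 0.0301). With the replicate number as a block the ascending adjusted p was 0.0524.

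Oasl2, a relative that carries ubiquitin-like domains, read 7.61 and 7.25 in KO ascending aorta, against 6.74 and 6.65 in WT. In the descending aorta it read 7.55 and 7.33 in KO, against 6.90 and 6.91 in WT. Here too the 4 KO arrays were above the 4 WT arrays. The ascending rise was 0.73 (SE 0.14, adjusted p = 0.0364) and the descending difference 0.53 (SE 0.14, adjusted p = 0.0916). Oasl1, its neighbour on chromosome 5 and in mouse a restrainer of Irf7 translation, differed by 0.45 (adjusted p = 0.117) and 0.01 (adjusted p = 0.972). Eif2ak2, the kinase PKR that halts translation on double-stranded RNA, differed by 0.17 (adjusted p = 0.617) and 0.02 (adjusted p = 0.963).

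Rsad2, or viperin, makes an altered nucleotide that ends viral RNA chains. It read 7.70 and 7.97 in KO ascending aorta, against 6.75 and 6.86 in WT, and 7.32 and 7.21 in KO descending aorta, against 7.23 and 7.33 in WT. The ascending groups were wide apart, whereas the 4 descending arrays were within a narrow band. Rsad2 rose by 1.03 (SE 0.12, adjusted p = 0.00891), a 2.04-fold difference, in the ascending aorta, and the descending difference was -0.01 (SE 0.12, adjusted p = 0.973). Cmpk2, a mitochondrial nucleotide kinase encoded next to Rsad2 on chromosome 12, differed by 0.28 (adjusted p = 0.373) in the ascending and 0.22 (adjusted p = 0.49) in the descending aorta.

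Bst2, or tetherin, which holds budding viruses at the cell surface, had one of the brightest signals of the list. It read 10.02 and 9.52 in KO ascending aorta, against 9.01 and 8.97 in WT, and 9.98 and 9.58 in KO descending aorta, against 9.13 and 9.18 in WT. The KO arrays were above the WT arrays in both segments, with replicate 1 the higher of each KO pair. Neither segment passed alone (0.78, SE 0.18, adjusted p = 0.0619, and 0.62, SE 0.18, adjusted p = 0.118), and the average over segments rose by 0.70 (SE 0.13, adjusted p = 0.0126). With the replicate block the ascending difference had an adjusted p of 0.0489.

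Mx2 and Mx1 are dynamin-like GTPases that block incoming viruses, and laboratory strains such as C57BL/6 carry a deletion in Mx1. Mx2 read 5.80 and 5.56 in KO ascending aorta, against 5.31 and 5.23 in WT, and 6.34 and 5.68 in KO descending aorta, against 5.43 and 5.41 in WT. Every KO array exceeded every WT array, but the average over segments, 0.50 (SE 0.14), had an adjusted p of 0.0528. Mx1 was the dimmest member, at 4.43 to 4.59 on KO arrays and 4.20 to 4.33 on WT arrays, and differed by 0.30 (adjusted p = 0.157) in the ascending and 0.19 (adjusted p = 0.369) in the descending aorta. Rtp4, which limits replication of some RNA viruses, differed by 0.39 (adjusted p = 0.186) and 0.33 (adjusted p = 0.262).

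**Figure D3:**
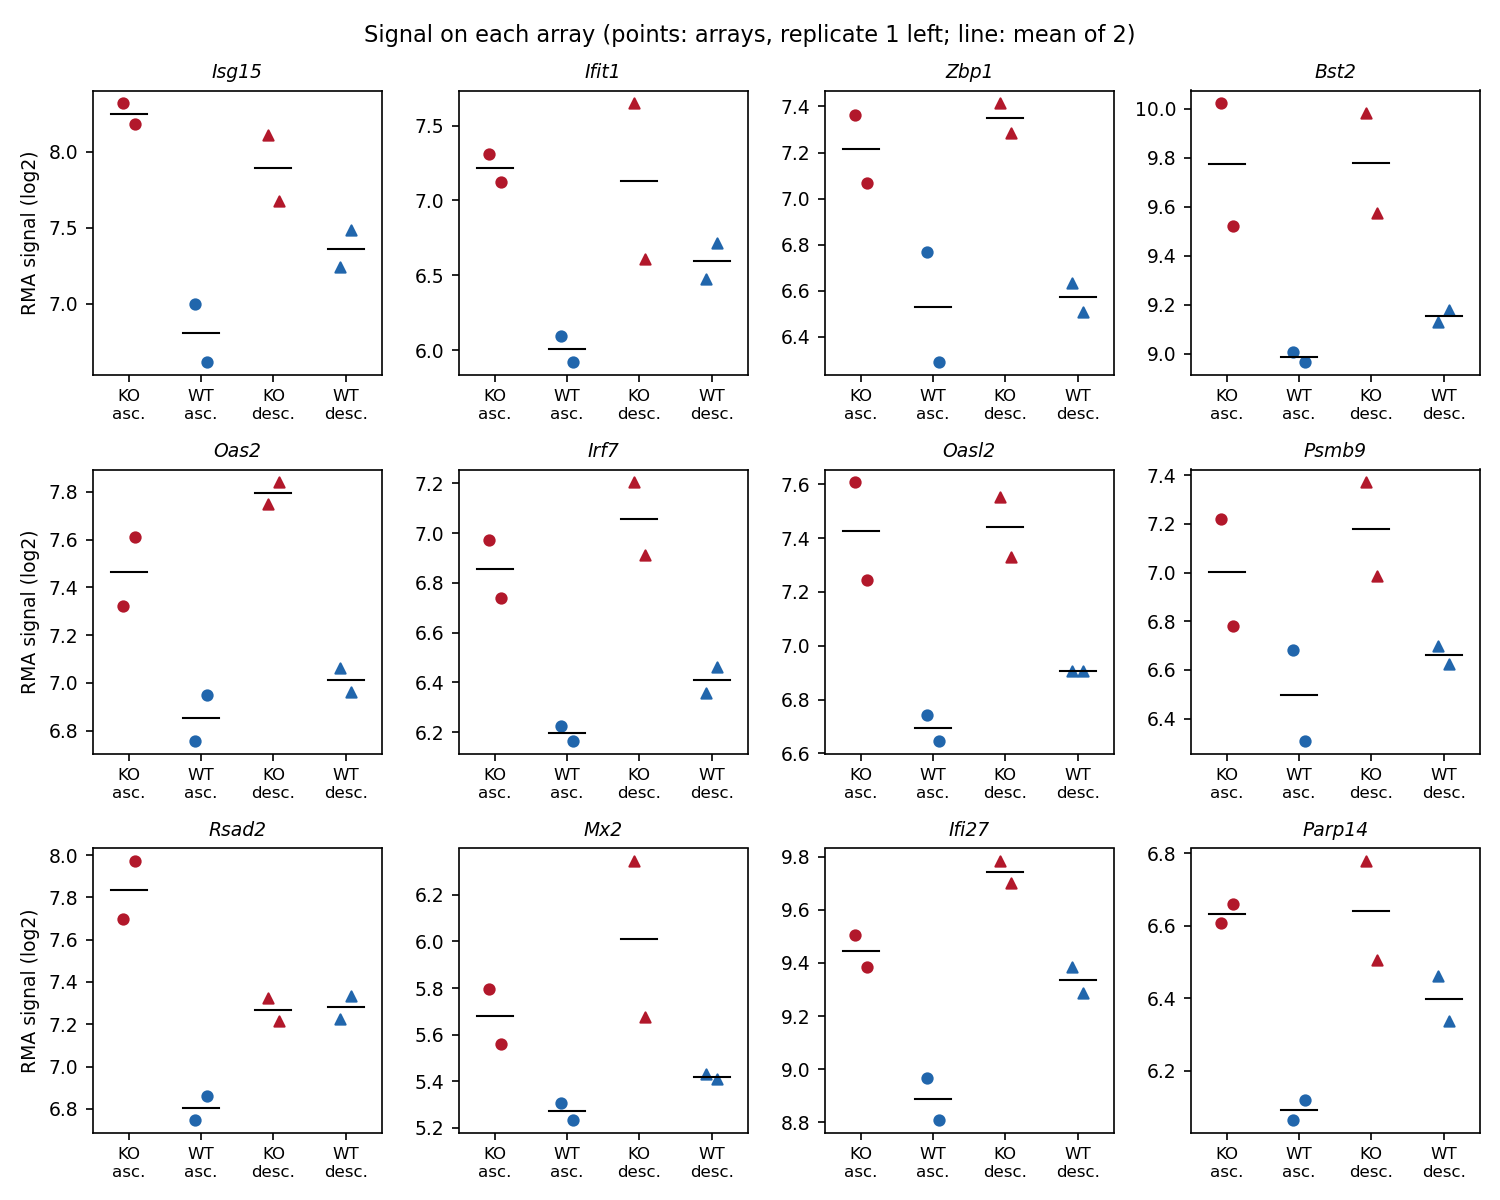
RMA signal (log2) of 12 members on every array, with KO in red and WT in blue, circles for ascending and triangles for descending aorta, and a line at each group's mean of 2 arrays; each panel has its own axis range. The 2 KO ascending points of Rsad2, at 7.70 and 7.97, stand apart from its other 6, while in Oas2 and Irf7 all 4 KO points lie above all 4 WT points.

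Irf7, the transcription factor that amplifies type I interferon production, read 6.97 and 6.74 in KO ascending aorta, against 6.23 and 6.17 in WT. In the descending aorta its signal was 7.20 and 6.91 in KO, against 6.36 and 6.46 in WT. Over both segments together, all 4 KO arrays lay above all 4 WT arrays. In the ascending aorta it rose by 0.66 (SE 0.13, adjusted p = 0.0434), which is 1.58-fold. In the descending aorta it rose by 0.65 (SE 0.13, adjusted p = 0.0479), which is 1.57-fold. The descending adjusted p was 0.0587 with the replicate block. The other transcription factors of the list were not called. Stat2 differed by 0.36 (adjusted p = 0.281) and 0.44 (adjusted p = 0.204), Irf9 by 0.01 (adjusted p = 0.976) and 0.23 (adjusted p = 0.455), and Irf1, a factor prominent in the type II response, by 0.03 (adjusted p = 0.928) and -0.10 (adjusted p = 0.736).

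Among sensors and regulators, Zbp1 binds nucleic acids in the Z conformation and can start cell death. It read 7.36 and 7.07 in KO ascending aorta, against 6.77 and 6.29 in WT, and 7.41 and 7.28 in KO descending aorta, against 6.63 and 6.51 in WT. Each KO array was above each WT array. The segments just missed the threshold (0.68, SE 0.17, adjusted p = 0.0742, and 0.78, SE 0.17, adjusted p = 0.0578), the average over segments rose by 0.73 (SE 0.12, adjusted p = 0.0091), and with the replicate block both segments passed, at adjusted p = 0.0387 and 0.0371. Parp14, an ADP-ribosyltransferase, read 6.61 and 6.66 in KO ascending aorta, against 6.07 and 6.12 in WT, and 6.78 and 6.51 in KO descending aorta, against 6.46 and 6.34 in WT. Its groups were apart in both segments, more widely in the ascending one, and the average rose by 0.39 (SE 0.08, adjusted p = 0.0223). Parp9, its partner, differed by 0.16 and 0.04 in the ascending and descending aorta (adjusted p = 0.559 and 0.905). The RNA sensors Ifih1 and Dhx58, known as MDA5 and LGP2, and the ubiquitin ligase Trim25 had ascending differences of 0.36, 0.43 and 0.32 and descending differences of 0.48, 0.34 and 0.21, and none was called.

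Psmb9, Psmb8 and Tap1 prepare antigen for presentation to T cells and their genes lie side by side on chromosome 17. Psmb9, a catalytic subunit of the immunoproteasome, read 7.22 and 6.78 in KO ascending aorta, against 6.68 and 6.31 in WT, and 7.37 and 6.99 in KO descending aorta, against 6.70 and 6.62 in WT. The arrays did not overlap in either segment, and the average over segments rose by 0.51 (SE 0.14, adjusted p = 0.0466). Psmb8, another such subunit, and Tap1, a peptide transporter subunit, were not called, with average differences of 0.26 (adjusted p = 0.272) and 0.24 (adjusted p = 0.32).

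Ifi27, a mitochondrial or nuclear membrane protein, was bright in every pool. It read 9.51 and 9.38 in KO ascending aorta, against 8.97 and 8.81 in WT, and 9.78 and 9.70 in KO descending aorta, against 9.38 and 9.29 in WT. KO was above WT within each segment, and descending was above ascending within each genotype. The rise was 0.56 (SE 0.11, adjusted p = 0.0385) in the ascending aorta, and the descending difference was 0.41 (SE 0.11, adjusted p = 0.0954). Ifi35 and Xaf1, a regulator of cell death, had average differences of 0.12 each and were not called (adjusted p = 0.388 and 0.444). The immunity GTPases Igtp, Irgm1 and Gbp3, mostly targets of type II interferon, were not called either, with average differences of 0.57, 0.24 and 0.10. Igtp varied widely between pools of a group, at 7.10 and 6.22 in KO ascending aorta, against 6.39 and 5.69 in WT.

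The difference between segments was then compared between genotypes. In WT pools most members read lower in the ascending than in the descending aorta, with 4 of 34 differences above 0, against 48.8% of all genes, and a median of -0.16 log2. Both WT ascending arrays were below both WT descending arrays in 15 members, against 22.6% of all genes, and above them in 1, against 19.8%. None was called in limma, 4 had an unadjusted p under 0.05, a share near the 12.3% of all genes, and 1.48% of all genes were called, 0.511% higher and 0.974% lower. In KO pools the median was -0.07, with 10 members above 0, against 49.5% of all genes. No member was called there, against 1.48% of all genes (0.547% higher and 0.938% lower), with 4 members at an unadjusted p under 0.05, a share near the 12.1% of all genes. Both KO ascending arrays were above both KO descending arrays in 7 members, against 20.2% of all genes, and below them in 4, against 20.8%. The median was 0.09 without KO descending replicate 1, -0.26 without KO descending replicate 2, 0.01 without KO ascending replicate 2 and -0.12 without KO ascending replicate 1.

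The interaction asked whether the KO effect itself differed by segment. It was not called in any member or in any of the 16638 genes, which is 0% of them, and 3 members had an unadjusted p under 0.05, against 5.6% of all genes. It was above 0 in 22 members, against 50.5% of all genes. Rsad2 had the largest interaction, with the KO minus WT difference 1.04 log2 greater in the ascending aorta (SE 0.17, unadjusted p = 0.000254, adjusted p = 0.579 in limma). Isg15 followed at 0.91 (SE 0.26, adjusted p = 0.775) and Oasl1 stood at 0.44 (SE 0.19, adjusted p = 0.882). Rsad2 read lower in WT ascending than in WT descending pools by 0.48 and higher in KO ascending than in KO descending pools by 0.56. The difference between segments did not pass the test in Rsad2 after adjustment.

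**Figure D4:**
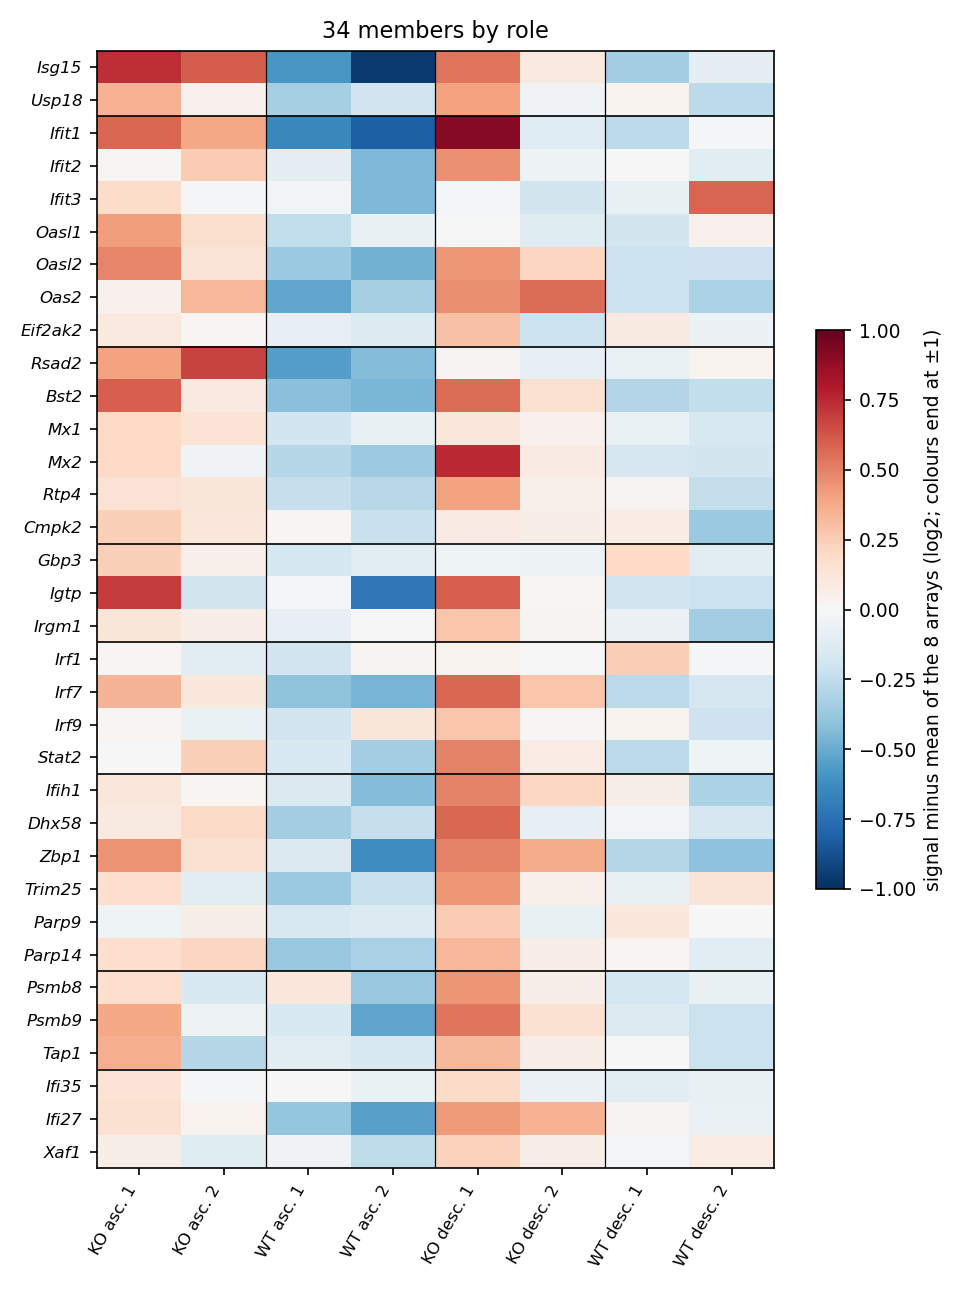
Signal of the 34 members on each of the 8 arrays minus the gene's mean over them (log2, red above and blue below, colours ending at 1 and -1), with genes in rows grouped by role and arrays in columns. KO descending replicate 1 holds the highest signal of 21 members, and the 2 WT ascending arrays hold the lowest signal of 28.

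Pools of the same group differed in how high the members read. KO descending replicate 1 was above KO descending replicate 2 in 33 of 34 members, with a median gap of 0.28 log2, while 54.1% of all genes were higher on that array. KO ascending replicate 1 was above KO ascending replicate 2 in 27 members, with a median gap of 0.15, against 47.1% of all genes. In each WT group replicate 1 was the higher in 21 of 34, with gaps of 0.06 in the ascending and 0.10 in the descending aorta, against 47.3% and 58.6% of all genes. The median KO minus WT difference in the descending aorta was accordingly 0.15 without KO descending replicate 1 and 0.49 without KO descending replicate 2, and 0.21 without WT descending replicate 2. Averaged over the 34 members, signals were 7.01 to 7.16 in KO ascending pools, against 6.59 to 6.69 in WT ascending pools, and 6.98 to 7.28 in KO descending pools, against 6.80 to 6.84 in WT descending pools.

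Other genes of the pathway were taken from lists written from general knowledge, with earlier results of these data known. Of 49 further interferon induced genes tested, 12 rose and none fell averaged over segments, with a median of 0.25 log2, beside 6.21% of all genes called higher. In the ascending aorta 3 of the 49 rose and in the descending aorta 2, beside 1.54% and 1.46% of all genes called higher. Rnf213, a large ubiquitin ligase whose human form is linked to moyamoya disease of arteries, rose in both, by 0.66 (SE 0.12, adjusted p = 0.0297) and 0.58 (SE 0.12, adjusted p = 0.0475). Its signal was 8.35 and 8.11 in KO ascending aorta, against 7.54 and 7.60 in WT, and 8.41 and 8.25 in KO descending aorta, against 7.71 and 7.78 in WT. The calls of Rnf213 were not followed under the alternatives, over which the descending count of all genes ran from 20 to 919. Slfn1, a regulator of lymphocyte and myeloid growth, rose by 1.35 in the ascending aorta (adjusted p = 0.0164), and Ube2l6, the conjugating enzyme for Isg15, by 0.85 (adjusted p = 0.0175). Pml, the organiser of nuclear bodies, rose by 0.77 in the descending aorta (adjusted p = 0.0266). Averaged over segments Sp100, a partner of Pml, rose by 0.60 and Oas1b by 0.53, while the chemokine Cxcl10 differed by 0.58 (adjusted p = 0.227). KO ascending replicate 2 read 6.33 for Cxcl10, against 4.57 to 5.44 on the other arrays.

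Upstream of the response, of 17 receptors and signal transducers tested, none was called in either segment and 2 fell averaged over segments, with a median of -0.10. Over all genes 5.22% were called lower in that average. Jak2, a kinase of the type II receptor, fell by 0.49 (SE 0.09, adjusted p = 0.0152), and Ifngr1, a chain of that receptor, fell by 0.37 (SE 0.08, adjusted p = 0.0199). Its partner chain Ifngr2 went the other way, at 9.07 to 9.16 on KO arrays, against 8.85 to 8.93 on WT arrays, and was not called. The averaged difference was above 0 in 6 of the 17. Ifnar1, a chain of the type I receptor, differed by -0.24 (adjusted p = 0.085). Among 15 nucleic acid sensors and adaptors, and beside 6.21% of all genes called higher, 2 rose averaged over segments. They were Samhd1, which breaks down deoxynucleotides, by 0.48 (SE 0.07, adjusted p = 0.00747), and Polr3d, a subunit of the RNA polymerase that copies foreign DNA, by 0.44 (SE 0.10, adjusted p = 0.0266). Sting1, the adaptor of cytosolic DNA sensing, differed by 0.27 (adjusted p = 0.162).

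Of 13 ligands written, 6 passed the filter on dim genes, none of the 6 was called, and the median difference averaged over segments was -0.09. Ifna4 read 6.67 to 6.82 on KO arrays and 6.67 to 7.11 on WT arrays, and Ifnb1 and Ifng were below the filter. None of 15 tested genes of antigen presentation was called, with a median of 0.05. Psmb10, the remaining inducible proteasome subunit, differed by 0.33 (adjusted p = 0.0524) and H2-K1, a class I molecule, by -0.01 (adjusted p = 0.962).

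Some markers of leukocytes moved in the same pools, and their part in the interferon result was not tested. Macrophage and monocyte markers averaged 7.76 to 7.86 in KO ascending pools, against 7.22 to 7.40 in WT, and 7.85 to 7.87 in KO descending pools, against 7.50 to 7.55 in WT. Of 12 tested, 3 rose in the ascending aorta (Ly6c2, Ccr2 and Cd14), 2 in the descending aorta (Cd68 and Adgre1) and 7 averaged over segments. Beside these stood 1.54%, 1.46% and 6.21% of all genes called higher, in the same order. The difference was above 0 in 11, 10 and 11 of the 12. Not all moved clearly, and C1qa read 7.14 and 7.43 in KO ascending aorta, against 7.17 on both WT arrays. For C1qb both KO descending arrays were below both WT descending arrays, which read 9.32 and 9.09. Ccr2, a receptor of blood monocytes, read 6.42 and 6.38 in KO ascending aorta, against 5.42 and 5.22 in WT, and 5.71 and 5.73 in KO descending aorta, against 5.76 and 5.74 in WT. Its ascending rise was 1.08 (SE 0.11, adjusted p = 0.00494), its descending difference was -0.03 (adjusted p = 0.909), and its interaction did not pass (1.11, SE 0.15, adjusted p = 0.439).

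Neutrophil markers averaged 6.69 on both KO ascending arrays, against 5.14 to 5.57 in WT, and 6.07 to 6.54 in KO descending pools, against 5.54 to 5.81 in WT. Of 11 tested, 6 rose in the ascending aorta (S100a8, S100a9, Ngp, Retnlg, Cxcr2 and Mmp8), none in the descending aorta and 8 averaged over segments. Of all genes, 1.54%, 1.46% and 6.21% were called higher, in the same order. In the descending aorta 10 of the 11 neutrophil differences were above 0, with a median of 0.49 log2. No neutrophil marker had an interaction called. Markers of plasmacytoid dendritic cells, potent producers of type I interferon, averaged 6.11 to 6.37 in KO and 6.21 to 6.40 in WT pools. None of 7 was called. Bst2, also on that list, was counted with the members instead, and rose by 0.70 averaged over segments (adjusted p = 0.0126 in limma). Tcf4 and Cox6a2, the brightest of the 7, read 8.32 to 8.77 and 7.40 to 9.20 over all arrays and carry much of the mean. Siglech, the defining marker of these cells, read 5.01 to 5.46 on KO arrays and 5.28 to 5.74 on WT arrays. None of 4 natural killer cell and none of 8 T cell and thymus markers was called, with the latter list at 5.34 to 5.56 in KO ascending pools, against 5.29 to 6.53 in WT. Of 7 endothelial markers none rose and 3 fell averaged over segments, Kdr, Pecam1 and Tek, beside 5.22% of all genes called lower. Averaged over segments, 1 of 5 B cell markers fell, Ebf1, which read 8.72 to 9.28 over the arrays. The other B cell markers were far dimmer, at 4.15 to 6.03, and which cells gave the Ebf1 signal was not tested. In the same average 1 of 6 fibroblast and adventitia markers rose (Pi16) and 2 fell (Pdgfra and Dpt). Of all genes, 6.21% were called higher and 5.22% lower there, and none of 3 erythroid markers was called. In the descending aorta 1.46% of all genes were called higher and 0.823% lower. There 4 of 6 liver markers rose (list means 7.54 to 8.81 in KO, against 5.87 to 6.34 in WT) and 2 of 5 lung epithelium markers fell (4.66 to 4.69 in KO, against 6.44 to 6.94 in WT). In the ascending aorta none of these was called, but the liver list stood at 7.15 to 7.29 in KO, against 6.66 to 6.76 in WT, and the lung list at 4.63 to 4.72 in KO, against 4.64 to 5.47 in WT. Alb read 8.57 and 8.37 in KO ascending aorta, against 7.69 and 7.54 in WT. The part of these markers in the interferon values was not tested in either segment.

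**Figure D5:**
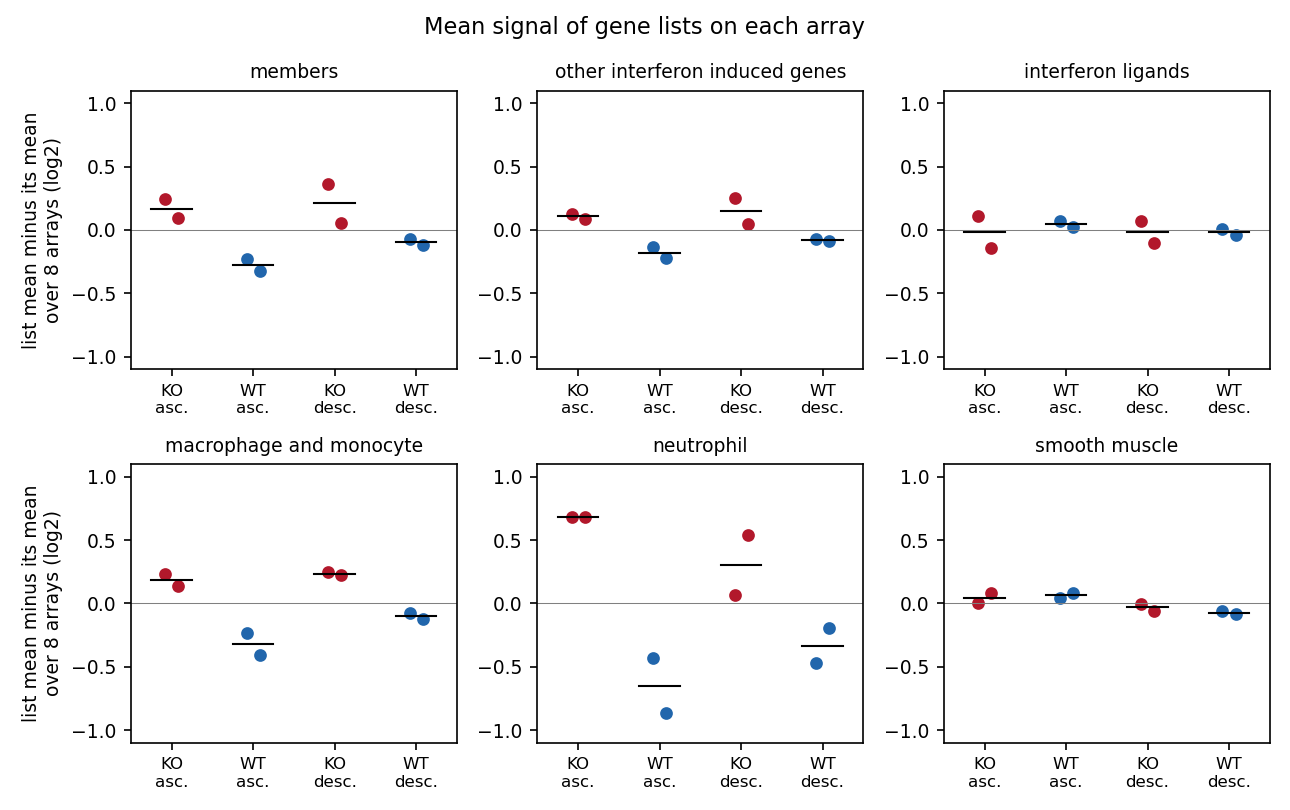
Mean signal on each array (points) of the 34 members, 49 other interferon induced genes, 6 interferon ligands, 12 macrophage and monocyte markers, 11 neutrophil markers and 7 smooth muscle markers, each minus its mean over the 8 arrays (log2), with KO in red, WT in blue and a line at the group mean. Members, other interferon induced genes and both leukocyte lists lie higher in KO than in WT in each segment, and in the ligands and smooth muscle markers none was called.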

How the data were processed

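RNA of 8 pools was measured on Affymetrix arrays. The authors deposited log2 signals. Per the submitters' processing notes, the tools were RMA and Affymetrix Expression Console, with no version. The table held 41345 probe sets, of which 23525 had 1 gene symbol in the platform table, 1810 several and 16010 none. The brightest probe set was kept for each of 22184 genes, and genes whose mean over the arrays lay under the 25th percentile (4.11 log2) were dropped. Groups were fitted in limma 3.58.1 (R 4.3.3) over all 8 arrays, with default eBayes (residual df 4, prior df 4.51). RNA levels are relative to each pool's total, and the number of arrays limits the precision. The method was tested on simulated data. Members and lists were chosen with earlier results of these data known. Values on every array are given for members called in any of 6 contrasts and for the 12 with the smallest p in KO against WT averaged over segments. Of the pathway lists, up to 6 called genes and at least 1 not called are named, the latter picked with their values known. Of the cell type markers only some called genes and few not called are named. Alternatives were other filters, priors, scalings, array weights, the replicate block, probe set means, a fit limited to the compared arrays, and omission of every array in turn, which assumes that the remaining pool varies as pools elsewhere do. Promoters are RefSeq's (GRCm38.p6), searched on both strands. Figures used matplotlib 3.10.9.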

Additional observations from a re-analysis of the deposited data

How the results depend on the processing

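Of 34 members, 6 were called in KO against WT ascending. That count was 2 with no filter on dim genes, 10 with the filter at the 50th percentile (32 members tested) and 3 when only the arrays compared were fitted, and it ran from 1 to 5 when each array was left out. The 2 called in the descending aorta were 1 with no filter, 1 with cyclic loess, 1 with only the arrays compared and 5 with a trended robust prior, and 0 to 2 without 1 array. Averaged over segments the 11 ran from 7 to 15 without 1 array and from 10 to 15 otherwise. The interaction gave 0 members throughout, and 0 to 11 of all genes. For ascending against descending, the 0 in KO became 1 with the 50th percentile filter and 1 with the trended robust prior, and the 0 in WT became 1 with the trended robust prior. The cause was not tested. Over all genes the ascending count of 455 ran from 64 to 1014, the descending count of 380 from 20 to 919 and the averaged count of 1902 from 782 to 2604. No called member changed direction under an alternative. The median interaction of the members, 0.11, was -0.10 without KO descending replicate 2. The labels do not tie replicate numbers to litters. Deviations of same-numbered arrays from their group means correlated at 0.13 (KO and WT ascending) and 0.11 (KO and WT descending), and between -0.10 and -0.02 across segments. With the replicate block 7, 2 and 15 members were called in ascending, descending and averaged comparisons, and 0 in the others. Alternatives for single members in the averaged comparison were chosen after seeing the data.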
